A study of Caenorhabditis elegans with 4 samples.

Results

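The genes described here are the F-box genes of Caenorhabditis elegans whose symbols begin with fbxa, fbxb or fbxc. A probe was taken when the array's platform annotation gave it a single gene with such a symbol. This found 279 probes for 257 genes, of 14943 genes named on the array: 133 fbxa, 84 fbxb and 40 fbxc genes. The samples were 4 preparations of RNA from wild-type worms at L4, the larval stage that precedes adulthood, each set against wild-type mixed reference RNA on an array with 2 channels. The labels name no strain, treatment or culture, do not say what was mixed into the reference, and do not say whether the preparations were grown separately, so every p-value measures the spread between these 4 preparations, which may be technical. Worms were measured whole, and in whole worms fewer cells of a type and less RNA per cell cannot be told apart.

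F-box proteins are the substrate-binding subunits of SCF ubiquitin ligases. In such a ligase the F-box motif holds a SKP1-type adaptor, the adaptor holds a cullin, and the cullin carries the RING subunit that brings in the ubiquitin-conjugating enzyme, while another domain of the F-box protein binds the protein to be marked for degradation. Nematode genomes carry F-box genes in exceptional numbers, many of them in tandem rows of close relatives, and the targets of most are not known. The fbxa proteins carry a domain related to that of FOG-2, an F-box protein of the hermaphrodite germline. Close relatives can hybridise to each other's probes on an array, so single members of a tandem row are uncertain. The part of such cross-hybridisation in the values below was not tested.

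All values are log2 ratios between the channels of an array, centred on the array's median. Which channel was divided by which is not given. The labels set L4, in channel 2, against the reference, so positive values are taken as probably higher in L4, and "higher" and "lower" carry that limit throughout. The 4 arrays correlated at 0.56 to 0.72 over all probes (Pearson's r). The stage was set against markers. All 6 markers of dauers and young larvae fell below the reference, 5 of 7 adult cuticle markers higher, 29 of 30 major sperm protein genes higher and 6 of 10 oocyte and eggshell genes lower. The preparations differed in these markers: the median of the sperm genes was 3.52, 3.53, 2.03 and 1.12 in preparations 1 to 4, that of the oocyte and eggshell genes -1.22, -0.13, -3.02 and -2.92, and that of the adult cuticle genes 4.09, 3.09, 4.71 and 1.7. In preparation 4 the adult cuticle genes split. There col-7, col-19 and col-62 were at -0.16, -2.65 and 0.12. The others, bli-1, bli-2, col-63 and rol-6, were at 3.53, 5.45, 4.3 and 1.7. What part the differences between preparations have in the F-box values was not tested.

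Few F-box genes differed from the reference, and those that did were mostly fbxa genes. Of 256 members with a value on at least 3 arrays, 21 were higher, 13 were lower and 222 did not pass (limma, Benjamini-Hochberg adjusted p under 0.05). Over all 19897 probes and genes tested, 11.9% were higher and 9.77% lower, or 21.7% in all, against 8.2% higher and 5.08% lower among the members. The remaining gene, the pseudogene fbxc-35, had values on 2 arrays only, 3.24 in preparation 1 and -0.19 in preparation 4.

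The stems differed in how many members passed and in how far the members spread. Of 133 fbxa genes, 20 were higher and 9 lower, or 15% and 6.77%. Of 84 fbxb genes, 1 was higher and 2 lower, and of 39 fbxc genes none was higher and 2 were lower. An unadjusted p under 0.05, in either direction, was found for 47 of 133 fbxa, 17 of 84 fbxb and 11 of 39 fbxc genes. Over all features the count was 7340 of 19897. Means ran from -3.26 to 2.53 in fbxa, from -1.21 to 2.29 in fbxb and from -1.21 to 0.86 in fbxc. A mean of at least 1 in size was found for 20.3% of fbxa genes, close to the 19.3% over all features, and for 5.95% of fbxb and 5.13% of fbxc genes. The fbxa counts thus lay near the background, and the fbxb and fbxc counts below it.

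**Figure D1:**
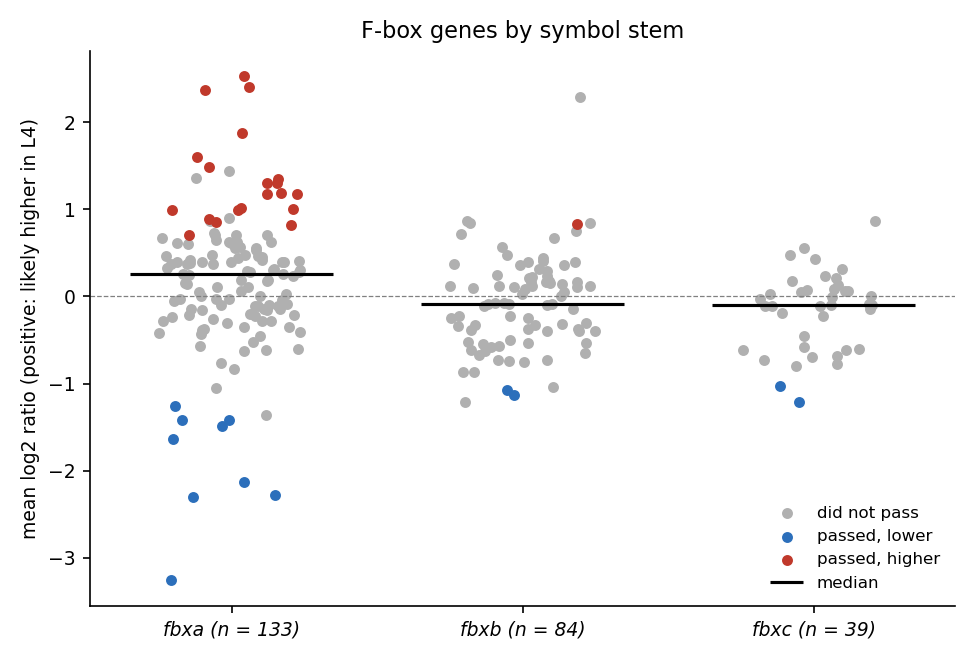
Mean log2 ratio of each tested F-box gene (vertical axis) by symbol stem (horizontal axis); each point is a gene, coloured by whether it passed the threshold in limma, and the black line is the stem's median. The fbxa genes reach from -3.26 to 2.53 and hold 29 of the 34 genes that passed, counting both directions.

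The fbxa genes also lay higher than the others as a group. The median of the means was 0.26 for fbxa, -0.08 for fbxb and -0.1 for fbxc, beside 0.02 over all features. With other scalings of the arrays the fbxa median stayed above 0, at 0.14 to 0.27, and the others below 0. The fbxa median exceeded the fbxb median on each array, by 0.27, 0.39, 0.06 and 0.43 in preparations 1 to 4, and the fbxc median by 0.26, 0.36, 0.5 and 0.31. Genes of a stem share arrays and can share hybridising sequence, so these differences are given without a test.

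The fbxb median differed most between preparations. Their median was -0.04, -0.39, 0.23 and -0.27 in preparations 1 to 4. In preparation 3, 61.4% of fbxb genes had a value above 0, and in preparation 4 only 20.2% did. The fbxa medians were 0.23, 0, 0.29 and 0.16, and those of fbxc -0.04, -0.35, -0.21 and -0.15. Chemoreceptors, another large gene family, had medians of 0.21, 0.3, 0.78 and -0.03, also highest in preparation 3. Across the 127 fbxa genes with 4 values, pairs of arrays correlated at 0.58 to 0.68, against 0.09 to 0.52 across 81 fbxb genes and 0.01 to 0.63 across 38 fbxc genes. These correlations are across genes, which are not independent, and each stem's genes were read on the same arrays. One sign on all 4 arrays was seen in 52% of fbxa genes, 30.9% of fbxb and 26.3% of fbxc, beside 45.9% of all features.

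**Figure D2:**
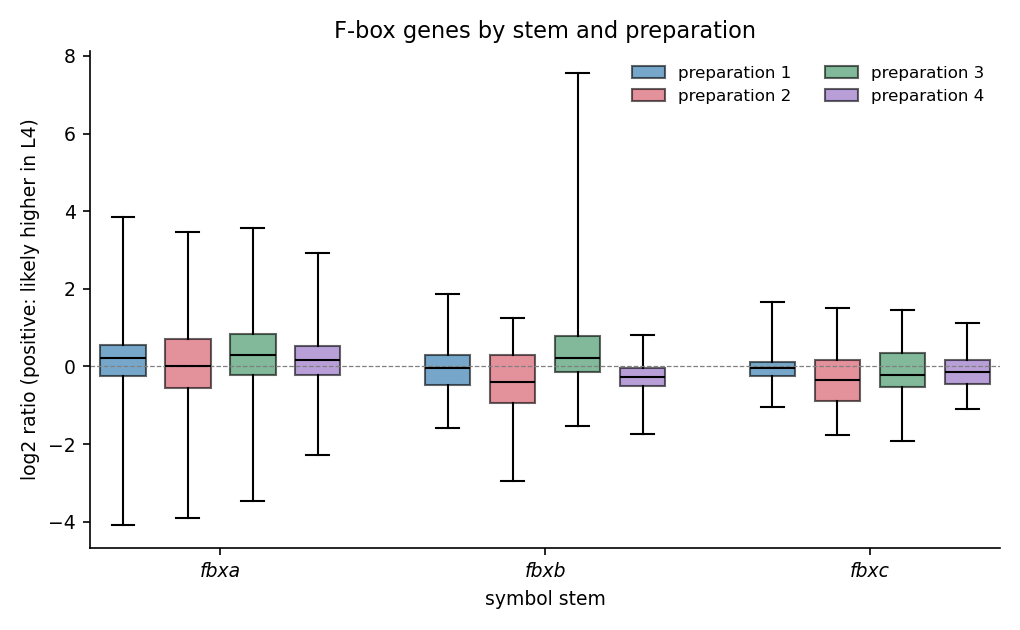
Log2 ratios (vertical axis) of the tested F-box genes by symbol stem (horizontal axis) and preparation (colour); boxes span the quartiles with the median as a line, and whiskers reach the lowest and highest gene. The fbxb boxes shift most between preparations, from a median of -0.39 in preparation 2 to 0.23 in preparation 3.

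The highest F-box genes were fbxa-224, fbxa-202 and fbxa-72, each over 5-fold from the reference. The gene fbxa-224 (ZK1290.9) was at 3.85, 1.83, 3.02 and 1.41 in preparations 1 to 4, a mean of 2.53 ± 0.39 (SE, n = 4), or 5.77-fold (adjusted p = 0.00372). Values of fbxa-202 (T28C12.3) were 3, 2.82, 2.22 and 1.56, with a mean of 2.4 ± 0.28 (adjusted p = 0.0013). Both genes were lowest in preparation 4. In contrast fbxa-72 (F31F4.15) was highest there, at 2.14, 2.05, 2.35 and 2.92, a mean of 2.37 ± 0.23 (adjusted p = 0.000764).

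Of the genes measured beside these 3 in the genome, 1 passed, where 21.7% of all features did. With so few neighbours, these counts show little. Of the 3 genes on either side of fbxa-72, which include the chemoreceptor genes sru-24, sru-25, srx-21, srx-22 and srx-23, all were measured and none passed, with means from 0.06 to 0.5. The measured neighbours of fbxa-224 were nfi-1, a transcription factor gene, rol-8, a cuticle collagen gene, tph-1, the tryptophan hydroxylase gene of serotonin synthesis, and ZK1290.10. Their means ran from -0.83 to -0.12 and none passed. Beside fbxa-202, 1 of 5 measured neighbours was higher, T28C12.1 at 1.13 (adjusted p = 0.0258). The neighbours named here and below were chosen after the values were seen.

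A second tier of fbxa genes was higher by less, and some of it had 1 preparation far above the others. The gene fbxa-125 (B0511.3) was even across preparations, at 1.68, 1.8, 1.78 and 1.14, a mean of 1.6 ± 0.22 (SE, n = 4; adjusted p = 0.00229). So was fbxa-52, at 0.78, 1.28, 1.41 and 1.28, a mean of 1.19 ± 0.22. By contrast fbxa-196 (T05H4.2) was at 1.17, 3.46, 1.69 and 1.15, and the pseudogene fbxa-110 at 0.8, 3.23, 1.23 and 0.66. Both were highest in preparation 2. When preparation 3 was left out neither passed (adjusted p = 0.0632 for fbxa-196), nor did fbxa-110 when preparation 2 was. Also higher were fbxa-84 at 1.35 ± 0.25, fbxa-51 at 1.3 ± 0.27, fbxa-178 at 1.3 ± 0.3 over 3 arrays, fbxa-177 at 1.18 ± 0.35 and fbxa-223 at 1.18 ± 0.28, the last 3 annotated as pseudogenes. Of the alternatives tried, fbxa-84 passed 11 of 11 and fbxa-51 10 of 11. The pseudogenes passed fewer, fbxa-178 7 of 10, fbxa-177 7 of 11 and fbxa-223 8 of 11. With the values as deposited fbxa-177 did not pass.

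The remaining fbxa genes that were higher had means of about 1 or less. They were fbxa-155 at 1.02, fbxa-183 at 1, fbxa-166 and fbxa-115 at 0.99, and, named after their values were seen, fbxa-182 at 0.89, fbxa-99 at 0.85, fbxa-105 at 0.82 and fbxa-216 at 0.7. The last was called because its arrays lay close together, at 0.73, 0.58, 0.79 and 0.69. It passed under 5 of 11 alternatives, and under none that left out a preparation. With arrays centred on housekeeping genes 10 F-box genes were higher, without preparation 2 there were 12 and without preparation 3 there were 9. Under all alternatives tried, fbxa-224, fbxa-202, fbxa-72, fbxa-125, fbxa-84 and fbxa-52 passed.

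**Figure D3:**
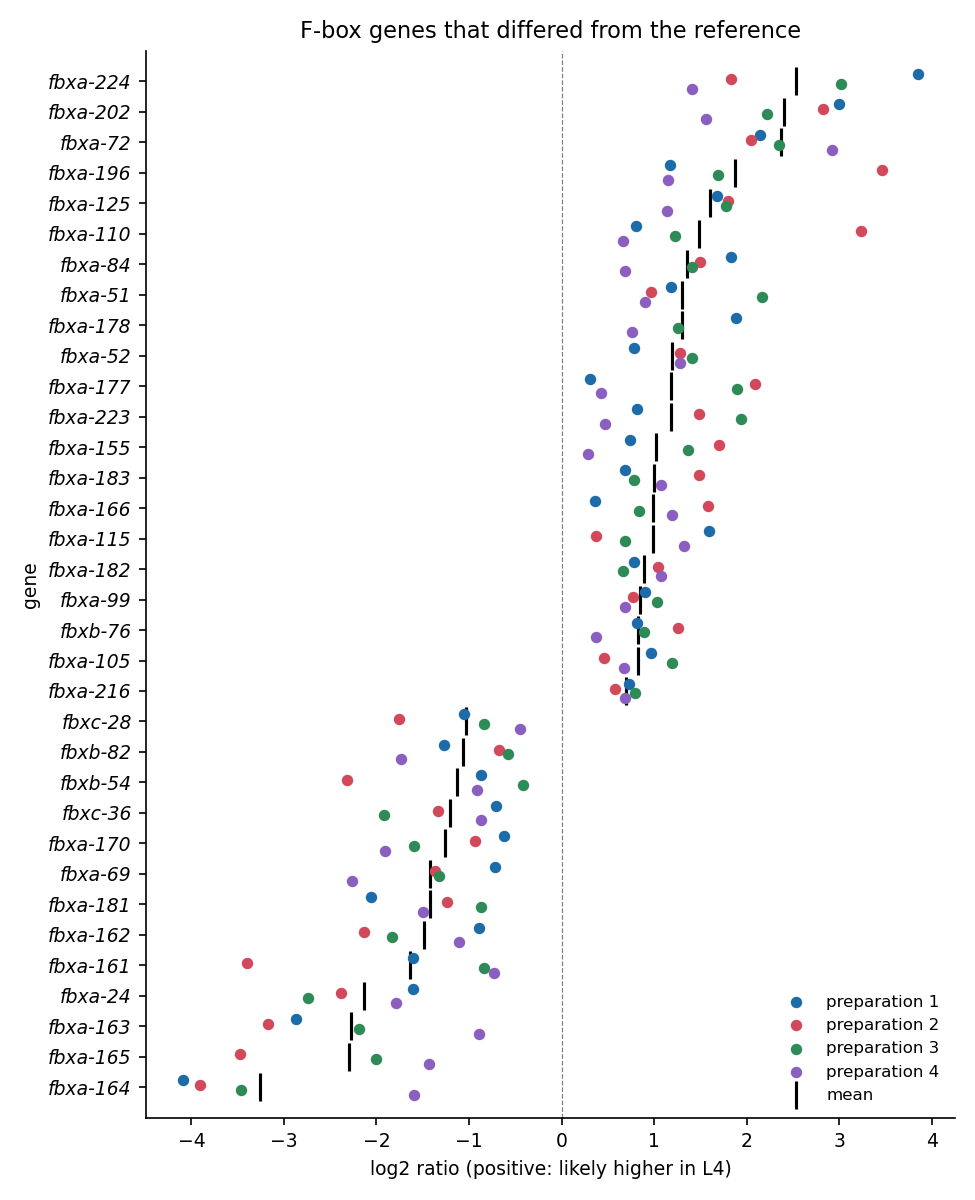
Log2 ratio (horizontal axis) in each preparation (coloured points) and its mean (black tick) for the 34 F-box genes that passed in limma (vertical axis, ordered by mean). Every measured value of a gene lies on one side of 0; fbxa-196 and fbxa-110 have their highest value in preparation 2.

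The lowest F-box genes were fbxa-164, fbxa-165, fbxa-163 and fbxa-24, of which all but the last lie in the same stretch of the genome. The gene fbxa-164 (C08E3.7) was at -4.09, -3.91, -3.46 and -1.6 in preparations 1 to 4, a mean of -3.26 ± 0.4 (SE, n = 4), or 9.6-fold lower (adjusted p = 0.00154). Values of fbxa-165 (C08E3.8) in preparations 2 to 4 were -3.47, -2 and -1.43, and the mean was -2.3 ± 0.4 (SE, n = 3; adjusted p = 0.00812). Preparation 1 had no value for it. In fbxa-163 (C08E3.6) the values were -2.87, -3.17, -2.19 and -0.89, and the mean was -2.28 ± 0.37 (SE, n = 4; adjusted p = 0.00431). All 3 were nearest to 0 in preparation 4. The values of all probes also spread least in preparation 4, with an SD of 0.85, against 0.95, 1.19 and 1.21 in preparations 1 to 3. What part this spread has in the 3 genes was not tested.

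The stretch held 5 lower genes, an uncalled BTB pseudogene and then a higher gene. In genome order it ran fbxa-161, fbxa-162, fbxa-163, btb-15, fbxa-164, fbxa-165, fbxa-166, fbxa-158, fbxa-159 and fbxa-160. The pseudogenes fbxa-161 and fbxa-162 were at -1.64 ± 0.42 (SE, n = 4; adjusted p = 0.0276) and -1.49 ± 0.27 (adjusted p = 0.00669). Values of fbxa-161 were -1.61, -3.4, -0.84 and -0.73, and those of fbxa-162 were -0.89, -2.14, -1.83 and -1.11. Both were lowest in preparation 2. One of the probes of fbxa-162 had no value in preparation 1.

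The lower run ended between fbxa-165 and fbxa-166, which are next to each other. The gene fbxa-166 was at 0.36, 1.58, 0.84 and 1.19, a mean of 0.99 ± 0.25 (SE, n = 4, adjusted p = 0.0263). It lost its call when preparation 2, 3 or 4 was left out (adjusted p up to 0.0875). Next to it, fbxa-158, which encodes a subunit of a ligase of the intracellular pathogen response, was at -0.11, -0.43, -0.18 and -0.48, and the mean of -0.3 did not pass (adjusted p = 0.315). Further on, fbxa-159 and fbxa-160 were at -0.03 and -0.57 and did not pass, nor did btb-15 at 0.38. Past fbxa-160 and 2 genes without a value, C08E3.13 was lower, at -1, -1.12, -1.13 and -1.32, a mean of -1.14 ± 0.2 (SE, n = 4; adjusted p = 0.00637). Before fbxa-161 in the same order, bath-46, bath-26, bath-47 and bath-33, which encode adaptors of another cullin ligase type, had means from -0.75 to 0.35 and none passed. Without preparation 3, fbxa-161 and fbxa-165 did not pass (adjusted p = 0.0675 and 0.0568), and 3 of the 5 were lower. The genes btb-15, fbxa-159, fbxa-160, C08E3.13 and the bath genes, and the stretch itself, were picked after the values were seen.

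**Figure D4:**
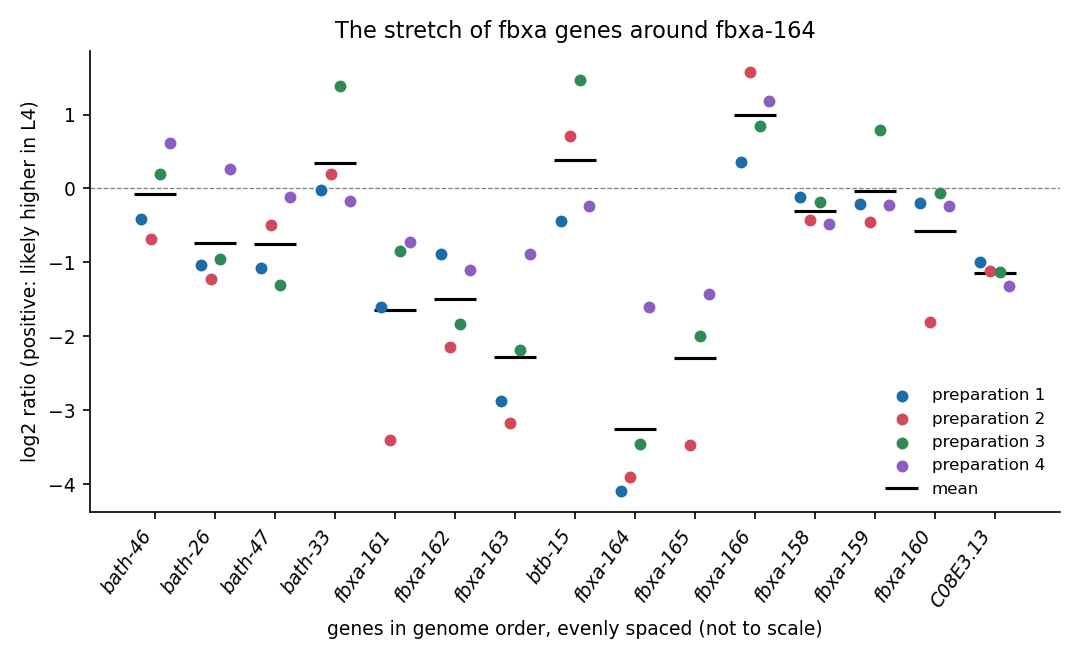
Log2 ratio (vertical axis) in each preparation (coloured points) and its mean (black line) for the measured genes around fbxa-164 in genome order (horizontal axis, evenly spaced). The 5 genes from fbxa-161 to fbxa-165, apart from btb-15, lie below 0 on every array, and fbxa-166 lies above 0 on every array.

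Outside this stretch, 4 more fbxa genes were lower. The gene fbxa-24 (F54D10.2) was at -1.61, -2.38, -2.74 and -1.79, a mean of -2.13 ± 0.25 (SE, n = 4; adjusted p = 0.00138). The gene fbxa-146, on one side of it, was at -0.62 and did not pass (adjusted p = 0.0782). On the other side, past F54D10.7, lay skr-15, a SKP1-related gene, which was lower at -1.72 (adjusted p = 0.00437). Beyond it gtnt-31 was lower at -1.92 (adjusted p = 0.00237).

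The others were fbxa-69, fbxa-181 and fbxa-170. Values of fbxa-69 were -0.72, -1.37, -1.32 and -2.27, with a mean of -1.42 ± 0.28 (SE, n = 4; adjusted p = 0.00918), lowest in preparation 4. Those of fbxa-181 were -2.06, -1.24, -0.87 and -1.5, with a mean of -1.42 ± 0.25. The next gene to fbxa-181, dct-17, moved the opposite way and was higher at 1.84 ± 0.24 (adjusted p = 0.00185). The gene fbxa-170 was at -0.62, -0.94, -1.59 and -1.91, with a mean of -1.26 ± 0.27, and lost its call when preparation 3 was left out (adjusted p = 0.0647). Under all alternatives tried, fbxa-164, fbxa-163, fbxa-162, fbxa-24, fbxa-181 and fbxa-69 passed.

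The 3 fbxb genes that passed lay close to the threshold. The gene fbxb-54 was at -0.87, -2.32, -0.42 and -0.91, a mean of -1.13 ± 0.32 (SE, n = 4; adjusted p = 0.0381), and fbxb-82 was at -1.27, -0.68, -0.58 and -1.73, a mean of -1.07 ± 0.26 (adjusted p = 0.0213). The higher one, fbxb-76, which the naming rule did not pick, read 0.81, 1.26, 0.89 and 0.37, a mean of 0.83 ± 0.23 (adjusted p = 0.0337). Each lost its call without at least 2 of the preparations left out in turn: fbxb-54 without any of the 4, fbxb-82 without 1 or 4, and fbxb-76 without 1, 2 or 3. The gene with the highest fbxb mean, fbxb-115 (T26H2.2), did not pass. Its values were 1.07, 0.8, 7.55 and -0.27, so the mean of 2.29 ± 1.1 came from preparation 3 (adjusted p = 0.169), and without it the mean was 0.53.

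Next to fbxb-82 lay fbxb-81 and fbxb-83, and they shared a pattern that fbxb-82 did not. Values of fbxb-81 were -0.55, -2.36, 0.41 and -1, and those of fbxb-83 were -0.5, -2.54, 0.11 and -1.24. Both were lowest in preparation 2 and above 0 in preparation 3, and neither passed (adjusted p = 0.154 and 0.097). The median of all fbxb genes was likewise lowest in preparation 2, at -0.39, and highest in preparation 3, at 0.23. The pattern is thus not particular to these genes. The gene fbxb-84, with the lowest fbxb mean, was at -0.72, -2.96, -0.13 and -1.03, also lowest in preparation 2, with a mean of -1.21 ± 0.42 (adjusted p = 0.0758). Of the other fbxb genes, 2 were among the 6 members that varied most between arrays, of those with 4 values: fbxb-47 at 1.38, 0.07, 2.41 and -0.48, and fbxb-22 at -0.4, 0.16, 2.2 and -0.48. Both were highest in preparation 3, as was the fbxb median, and neither passed.

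In fbxa, the members with 4 values that varied most between arrays did not pass either, nor did fbxa-171, at 0.53, 3.27 and 0.28 in preparations 1, 3 and 4, named after its values were seen. The gene fbxa-22 was at 0.13, 1.93, 3.57 and 0.12, a mean of 1.44 ± 0.54 (SE, n = 4; adjusted p = 0.0926), and passed only when preparation 1 was left out (adjusted p = 0.036). Values of fbxa-214 were -1.14, 1.63, 1.19 and -0.01, on both sides of 0.

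The fbxc genes that passed were both lower. The gene fbxc-36 (R07C3.2) was at -0.71, -1.34, -1.92 and -0.87, a mean of -1.21 ± 0.26 (SE, n = 4; adjusted p = 0.0134). Values of fbxc-28 (R07C3.6), named after they were seen, were -1.05, -1.76, -0.84 and -0.45, with a mean of -1.03 ± 0.26 (adjusted p = 0.0256). Without preparation 3 neither passed, and fbxc-28 also failed without preparation 1 or 2. At the other end, the pseudogene fbxc-16 was at 1.65, 0.29, 1.45 and 0.03, a mean of 0.86 ± 0.32 that did not pass (adjusted p = 0.0894).

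Many members were next to each other in the genome, but few rows of neighbours held genes that passed. By the order of protein-coding genes and pseudogenes in the reference annotation, 115 of the 257 members lay in 37 rows of at least 2, and 20 rows had 3 or more. Of the 34 genes that passed, 12 were among the 115 members in such rows and 22 among the 142 others. Over all features 21.7% passed, so counts were low both in rows and outside them. At least 1 gene that passed lay in 8 of the rows. Only the rows on either side of btb-15 held more than 1. The row of 5 from fbxc-32 to fbxc-6 had means from -0.73 to -0.1 and the row of 5 from fbxa-191 to fbxa-108 from -0.11 to 0.47. The other rows of 5 were wider, fbxa-151 to fbxa-30 from -0.52 to 0.63 and fbxa-185 to fbxa-189 from -0.6 to 0.29. A row of 6 from fbxa-200 to fbxc-29 ran from -0.8 to 0.55. In none of these rows did a gene pass. Among genes of one stem, next neighbours differed by a median of 0.52 in their mean (71 pairs), and all other pairs by 0.61 (12934 pairs). The stems were pooled, and their mix was not matched between next neighbours and other pairs. These pairs also share genes and are given as a description.

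Members annotated as pseudogenes were also among those that passed. Of 37 tested pseudogenes 4 were higher and 2 lower (10.8% and 5.41%), with a median of 0.29. Of 219 protein-coding members 17 were higher and 11 lower (7.76% and 5.02%), with a median of 0.03. Over all features 11.9% were higher and 9.77% lower, so neither kind of member passed more often than the background. All 6 pseudogenes that passed were of fbxa, where 4 of 27 were higher and 2 lower, against 16 and 7 of 106 protein-coding fbxa genes.

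For 22 members 2 probes each gave a check within the array. In 17 of them the probes' means had the same sign. Those that differed in sign by most were fbxb-16, at 0.79 and -0.56, and fbxa-199, at -0.04 and 0.5, followed by fbxc-18 and fbxb-32. None of these passed. Among genes that passed, the probes of fbxa-196 averaged 2.36 and 1.37, and in preparation 2 they read 5.08 and 1.84. The widest gap was in fbxa-154, at -0.4 and -2.31. The gene did not pass on their average (adjusted p = 0.0624), while its lower probe alone did (adjusted p = 0.0123).

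Among the partners of F-box proteins, the SKP1-related adaptor genes were often lower and the cullins did not pass. Of 20 genes of the SCF core, 11 were lower and none higher, with a median of -0.88, and all 11 were skr genes. The 11 are 55% of the list, against 9.77% lower over all features. The lowest were skr-9 at -2.62 ± 0.27 (SE, n = 4; adjusted p = 0.000856), skr-8 at -2.58 ± 0.28, skr-5 at -2.13 ± 0.27 and skr-15 at -1.72 ± 0.28. In skr-9 the values were -2.18, -3.45, -2.1 and -2.75, and in skr-8 -2.02, -3.27, -1.99 and -3.03, far from 0 on every array. The limit on close relatives given above holds for skr genes too. The 11 calls may thus not be separate signals, which was not tested. The adaptor skr-1, which serves many worm F-box proteins, was at -0.74, -0.83, -1.46 and -0.46, a mean of -0.87 ± 0.24 (adjusted p = 0.0327), but lost its call when preparation 1, 2 or 3 was left out (adjusted p up to 0.0991).

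The scaffold cul-1, on which SCF ligases are built, was at 0.23 (adjusted p = 0.512). The cullin cul-6, which works with fbxa-158 in the pathogen response, was at 0.18 (adjusted p = 0.58), and the RING subunit gene rbx-1 was at -0.4 (adjusted p = 0.244). Without preparation 1 or 3, 7 of the SCF core genes were lower. Of 7 measured cullin regulators, such as the ubiquitin-like modifier ned-8, none passed, and 1 had an unadjusted p under 0.05. With 21.7% of all features passing, a list of 7 shows little.

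The other F-box genes on the list, outside the 3 stems, did not pass. Of 9 measured, 0 passed in limma and 1 had an unadjusted p under 0.05. As 21.7% of all features passed, a list of 9 shows little. The gene sel-10, whose product acts on Notch receptors, was at -0.26, 0.19, -0.98 and -0.02, a mean of -0.27 (adjusted p = 0.468). The gene lin-23, a cell cycle regulator, was at -0.45 (adjusted p = 0.223), and fog-2, which promotes hermaphrodite sperm formation, was at -0.03, 0.16, -1.25 and -1.01, a mean of -0.53 (adjusted p = 0.221). The median of the list was -0.13, 0.05, -0.93 and -0.14 in preparations 1 to 4. Highest in preparation 2 and lowest in preparation 3 were sel-10, fog-2, lin-23, ftr-1, fsn-1 and prom-1, but not mec-15, dre-1 or mfb-1. The oocyte and eggshell median was also highest in preparation 2 and lowest in preparation 3, and a link was not tested.

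**Figure D5:**
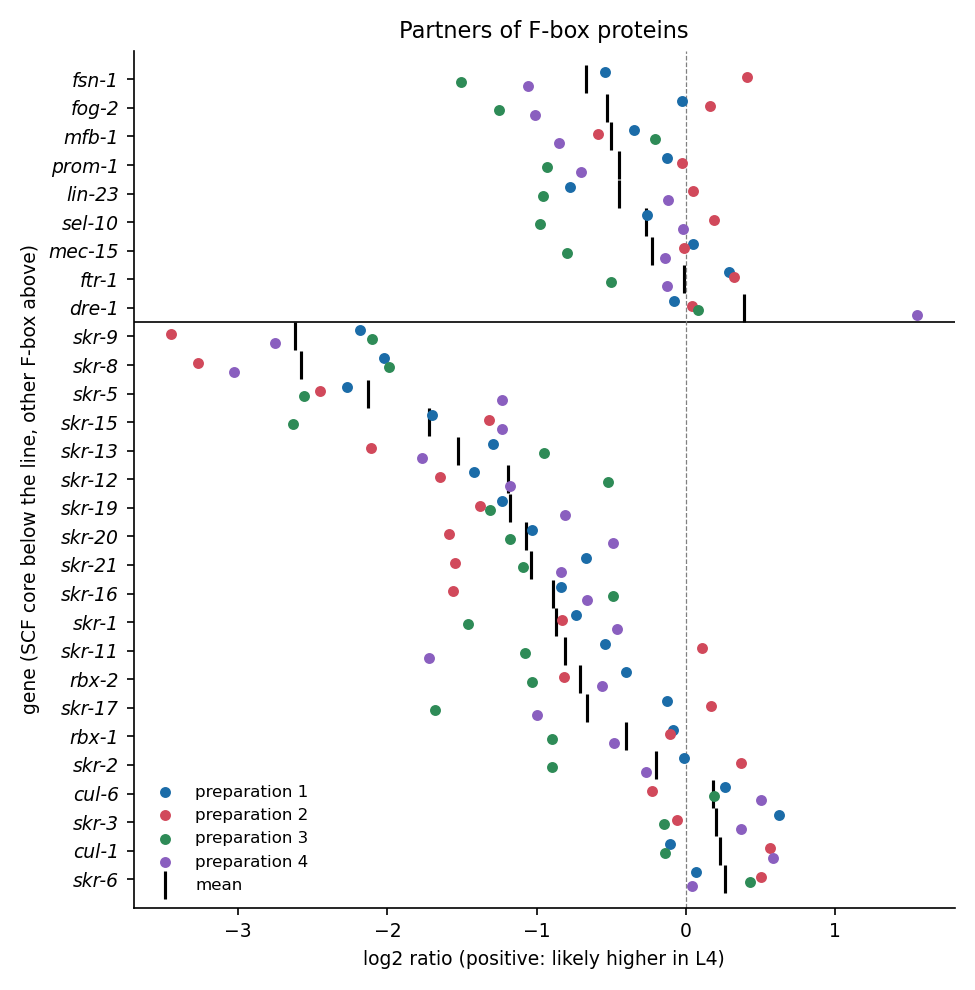
Log2 ratio (horizontal axis) in each preparation (coloured points) and its mean (black tick) for genes of the SCF core (below the line) and other F-box genes (above the line), ordered by mean within each list. The skr genes at the top of the lower block, from skr-9 to skr-15, lie below -1 on every array, and cul-1 and cul-6 lie on both sides of 0.

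The MATH and BTB genes, which encode adaptors of cullin ligases of another kind and also form large families in worms, gave counts near the background. Of 93, 12 were higher and 8 lower (12.9% and 8.6%, against 11.9% and 9.77% over all features), with a median of 0.25, close to the 0.26 of fbxa. The highest was math-5 at 2.77 ± 0.58 (SE, n = 4), which lost its call when preparation 3 was left out (adjusted p = 0.0887). The lowest was math-38 at -1.87 ± 0.28. Without preparation 1 or 3, 5 were higher, and with housekeeping centring 6 were.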

How the data were processed

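The values are those of the deposited table, 1 per probe and array for 21632 probes. The sources used here give no scanner, dye, background correction or normalization. The authors' deposited values are taken as log2 ratios, since their antilogs to base 2 were multiples of 0.001 (tolerance 0.02 steps) for 100% of values below 0. Column medians were -0.047, 0.007, -0.1 and -0.042. Scale is thus known, and centring by the authors and direction are not.

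Each array was centred on its median, and probes of one gene were averaged. All 279 member probes matched the WBcel235 gene table, used for names, biotypes and gene order; no array build is named, so no coordinates are given. A further 4 probes named a member among several genes and were left out. Means were tested against 0 with limma 3.58.1 in R 4.3.3 (lmFit, eBayes, 5.15 prior degrees of freedom), adjusted over all 19897 features with a value on at least 3 arrays. The reference counts as 1 sample, and its own spread is not in the test. SE is limma's, and the number of arrays limits the precision. Data simulated for this comparison held 19897 features. Recovered were 2 of 50 changes of 1, 42 of 50 changes of 2 and 49 of 50 changes of 3 (log2 scale). Of the features left unchanged there, 7 were called. Each amount was given to only 50 features, while 4311 features passed in the data, so the adjusted cut-off was stricter in the simulation. Its shares therefore do not give the rate of recovery in the data.

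Members and lists were chosen with earlier results of these data known. The naming rule took the 16 highest and 12 lowest members that passed, each stem's extremes, the 6 members with the largest SD among those with 4 values, up to 4 members whose probes differed in sign, fbxa-158, 7 partner genes and up to 4 passing genes per direction of each other list. Its part on protein identity was not used here.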

Additional observations from a re-analysis of the deposited data

Results flagged for a closer look

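Examined were 50 sets of 4 arrays (the named F-box genes with 4 values and the stem medians). In 2 of them an array lay far from the others by Dixon's ratio of gap to range. Chance alone gives about 1 in 20 where sets are chosen without regard to their values. Many of these genes were named for their values, fbxb-115 for its mean and SD, and fbxa-160 after its values were seen. The rate of 1 in 20 therefore does not hold here. In fbxb-115 the value in preparation 3 was 7.55, against 1.07, 0.8 and -0.27 in preparations 1, 2 and 4. In fbxa-160 the value in preparation 2 was -1.81, against -0.19, -0.06 and -0.24 in preparations 1, 3 and 4. Neither gene passed in limma.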

How the results depend on the processing

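The alternatives were values as deposited, housekeeping centring, equal spread of arrays, values on all 4 or at least 2 arrays, each probe alone, robust shrinkage and leaving out each preparation. Those of the stems and other lists were added after the data were seen. Housekeeping centring, with 15 genes, lowered the median of all features from 0.02 to -0.11 and gave 10 higher members (all fbxa), 0 fbxb higher and 6 MATH and BTB higher; 43.5% of called members were then higher, against 61.8%. Leaving out 1 preparation gave 2335 to 3628 features called (4311 with all), with the least without preparation 3. It gave 9 to 17 members higher and 9 to 13 lower, 9 to 14 fbxa higher and 6 to 10 lower, 0 to 3 fbxb higher and 0 to 3 lower, and 0 to 3 fbxc lower. It gave 7 to 10 SCF core genes lower, 5 to 10 MATH and BTB genes higher and 5 to 8 lower, and 3 to 5 lower of the 5 genes fbxa-161 to fbxa-165. The other counts stayed within 1.5 times. Of the 34 members that passed, 12 passed under every alternative that gave a value, and none of the named genes changed sign at a passing value. No paired analysis was possible because there is 1 group. The cause of these changes was not tested. Differences of about 1 are at the edge of what 4 arrays show here, so a member that did not pass is not shown to be unchanged.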
